A study of Mus musculus with 61 samples.

Results

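The genes Cish and Socs1 to Socs7 encode the 8 members of the SOCS family, the suppressors of cytokine signalling, and their rows were taken by symbol from the 24421 genes counted in each of 61 mouse RNA-seq libraries. The study asked how variants of STAT5B residue Y665 act in T cells, and its libraries were made from ribosomal RNA-depleted total RNA of mice aged 2 months that the labels give as C57BL/6. Per the methods, the edited Stat5b alleles were made in C57BL/6N. In the first experiment, naive CD4+ T cells were sorted from pooled lymph nodes and spleens, activated through the T cell receptor and CD28, and transduced with a retroviral vector. The vector was empty or carried unmutated STAT5B or 1 of its variants N642H, Y665F and Y665H. Every vector gave 3 libraries from WT cells and 3 from Stat5a/b-null cells after 48 h of culture with IL-2. N642H, an activating variant known from T cell leukemia, served the study as a positive control. In the null mice the floxed Stat5a/b locus was removed by a Cre recombinase under the Cd4 promoter, which also acts in CD8 cells through their double-positive stage. The genotype entry of the labels names the floxed locus for all 30 of these libraries, so the background was read from the titles. The second experiment used splenic T cells from WT, Stat5b Y665H and Stat5b Y665F mice (4 libraries each). They spent 24 h in culture with IL-7 and IL-2. Y665F cells were also sequenced without interleukin (3 libraries). The Y665H library replicate 4 equals replicates 1 and 2 added together in its reads on genes, so it is not a separate library. The paper describes unstimulated T cells as sequenced directly after isolation, but in introducing its comparison of Y665F and Y665H splenocytes. Whether the Y665F T cells without interleukin were cultured is not stated. Interleukin and the time in culture can therefore not be told apart in that comparison. The third experiment covered unstimulated spleens of WT (4 libraries), Y665H (5 libraries) and Y665F mice (7 libraries). The paper calls the CD4+ replicates independent and biological. The labels do not say which libraries came from separate animals or cultures, so the p-values measure the spread between these libraries, part of which may be technical.

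SOCS proteins close a feedback loop. A cytokine activates a JAK kinase, the kinase phosphorylates a STAT factor, and the STAT factor enters the nucleus and raises the transcription of SOCS genes, whose products then dampen the receptor that started the signal. Each member joins an SH2 domain, which binds phosphotyrosine, to a SOCS box, which recruits elongins and cullin 5 into a ubiquitin ligase. SOCS1 and SOCS3 also block the JAK kinase directly, whereas CIS, the product of Cish, and SOCS2 act at the receptor. IL-2 and IL-7 signal through STAT5, and Cish and Socs2 are classical STAT5 target genes. SOCS4 to SOCS7 are studied less and are linked more to receptor tyrosine kinases and the cytoskeleton.

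Promoter sequence was at hand for 4 of the 8 members, Cish, Socs1, Socs3 and Socs4, as RefSeq windows of 300 bases (250 before to 50 after the start, GRCm38.p6). They were searched on both strands for TTCNNNGAA, the spacing that STAT5 prefers, and for GAAA followed at 2 bases by a second GAAA, which is the core of interferon-type elements. The stretches that hold a match are shown because 3 of these genes changed in the comparisons that follow. Capitals mark the matches.
Cish: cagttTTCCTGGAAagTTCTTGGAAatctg
Socs3: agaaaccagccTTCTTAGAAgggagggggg
Socs1: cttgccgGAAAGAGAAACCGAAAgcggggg
The Cish stretch lies at chr9:107296654-107296683 on the plus strand, from 5 bases before the start to base 25 after it, and holds 2 copies of TTCNNNGAA. The Socs3 stretch lies at chr11:117969502-117969531 on the minus strand and holds 1 copy. The Socs1 stretch lies at chr16:10785597-10785626 on the minus strand and holds 2 overlapping copies of the paired GAAA motif. Of 32851 such windows, 8.3% held TTCNNNGAA and 0.457% held at least 2 copies, while 3.44% held the paired GAAA motif and 0.225% at least 2. No TTCNNNGAA stood in the Socs1 window, no paired GAAA motif in those of Cish and Socs3, and neither in that of Socs4. A match describes the letters and was not tested as a binding site.

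Reads counted on genes numbered 18825994 to 49850689 per library in the CD4+ cells, 2017012 to 27394249 in the splenic T cells and 24203179 to 43330536 in the spleens. Levels are given as CPM, read counts scaled to library size by TMM, which was done separately in each experiment, so that levels set side by side across experiments were not tested. A difference was called where its log2 fold change was beyond 1 and edgeR's quasi-likelihood test gave an adjusted p under 0.05. Where libraries of groups are said not to overlap, this only describes them. The share of all genes without overlap was not counted, and groups of 3 libraries can separate by chance. With the empty vector, the null cells had a log2 fold change of −5.12 for Stat5b (SE 0.30, adjusted p = 3.6e-12) and of −5.39 for Stat5a against WT cells. The splenic T cell library Y665F with interleukin replicate 3 stood apart from the other 14, with a summed level of 8 B cell markers of 737 CPM and of 8 erythroid markers of 839 CPM, and results that rest on it are given without it as well.

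The order of the members within the family differed between the cell sources. Per kilobase of exon, WT CD4+ cells with the empty vector held most Cish (109 CPM per kb, libraries 81.6 to 144) and Socs2 (103 CPM per kb, 73.1 to 124), whose library ranges overlapped. Socs1 followed at 45.4 CPM per kb (29.3 to 71.2) and Socs3 at 12.3 CPM per kb (8.12 to 16.6), and the other 4 members lay between 2.66 and 8.15 CPM per kb. Cish and Socs2 together gave most of the family's transcripts here, with shares of 37.5% and 35.5% of the summed level per kb. In WT splenic T cells with IL-2 and IL-7, Socs3 stood first at 46.0 CPM per kb (34.6 to 64.9) with a share of 45.3%, and Cish reached only 6.74 CPM per kb (3.58 to 11.8). In WT spleens the order was nearly turned around, with Socs5 first at 12.2 CPM per kb (11.3 to 12.6), Socs6 at 9.56 (8.88 to 9.94), Socs4 at 8.86 (8.02 to 10.2), and Cish and Socs1 last at 1.04 (0.67 to 1.37) and 0.554 (0.433 to 0.81). The Socs6 and Socs4 ranges overlapped. The reads of 2 antisense genes, Gm17040 and Gm17041, overlap exons of Cish, and whether counting used strand is not given in the sources used here.

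**Figure D1:**
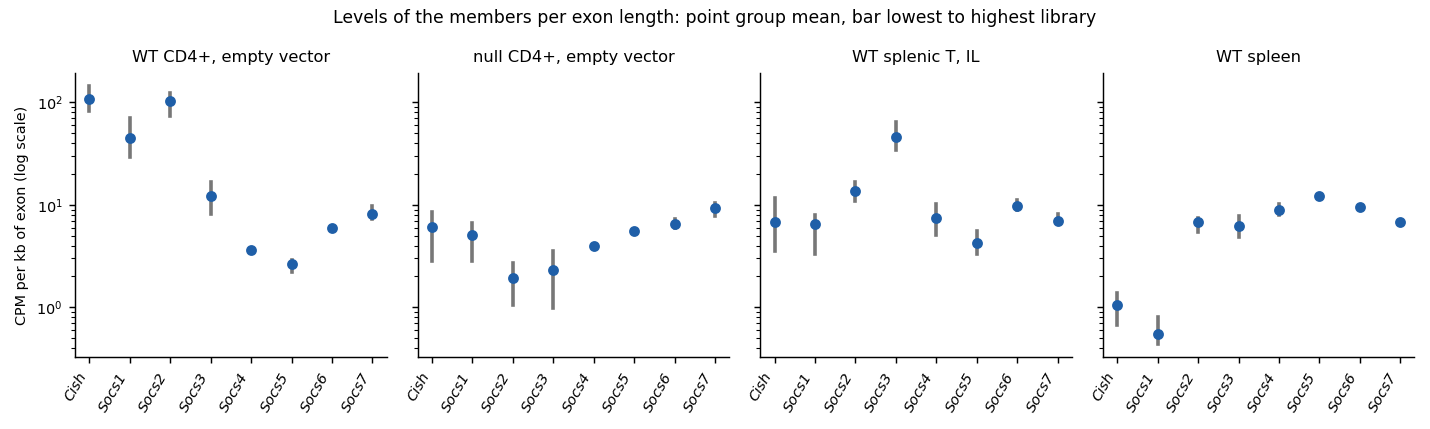
Levels of the 8 members in CPM per kb of exon (log axis) in 4 groups, with a point for the group mean and a bar from the lowest to the highest library. Cish and Socs2 lead in WT CD4+ cells at 109 and 103 CPM per kb, Socs3 leads in splenic T cells at 46.0, and Socs5 leads in spleens at 12.2.

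Loss of Stat5a/b lowered the 4 members that lead in CD4+ cells and raised Socs5. With the empty vector, 5 of the 8 members were called between null and WT cells, 4 lower and 1 higher, where 4.68% of the 21975 genes tested were called. Their median log2 fold change was −1.15, against −0.12 over all genes tested. DESeq2 also called 5.

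Socs2, whose product restrains growth hormone and IGF signalling, moved most. Its 3 libraries read 197, 299.8 and 336 CPM in WT cells and 2.86, 5.45 and 7.25 CPM in null cells. The groups were far apart, with a log2 fold change of −5.75 (SE 0.34, adjusted p = 3.6e-12), which leaves 0.0186 of the WT level. Cish, which binds the IL-2 receptor and dampens T cell receptor signalling, read 298, 366 and 526 CPM in WT cells and 10.2, 25.6 and 31.1 CPM in null cells. This gave a log2 fold change of −4.15 (SE 0.31, adjusted p = 6.28e-10) without overlap. Socs1, the main inhibitor of interferon and IL-2 signalling in T cells, read 85.3, 104 and 207 CPM in WT cells against 8.25, 16.5 and 19.3 CPM in null cells. Its log2 fold change was −3.17 (SE 0.36, adjusted p = 5.94e-07). Socs3, which restrains gp130 receptors such as that of IL-6, read 20.7, 30.8 and 42.4 CPM in WT cells and 2.53, 6.09 and 9.15 CPM in null cells. It fell by 2.41 on the log2 scale (SE 0.51, adjusted p = 0.00166), and its groups did not overlap either.

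The remaining members did not follow. Socs5, which is linked to IL-4 receptor and EGF receptor signalling, was higher in the null cells, where its libraries read 24.5, 26.4 and 27.1 CPM against 10.4, 13.3 and 13.4 CPM in WT cells. The log2 fold change was 1.07 (SE 0.17, adjusted p = 5.64e-05), close to the fold minimum. It was 0.96 without WT empty-vector replicate 1, which ended the call. A block on the replicate number gave 0.90, but this block was set within each background. It cannot adjust a difference between backgrounds, and its value depends on the baseline replicates. Socs4, Socs6 and Socs7 had log2 fold changes of 0.15, 0.11 and 0.18, and none passed the test.

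The same library was lowest for several of these genes within the null empty-vector group. Replicate 1 held the lowest level of Cish, Socs1, Socs2 and Socs3, and also of Stat5a (1.70 CPM, against 3.13 and 6.66) and Stat5b (2.78 CPM, against 5.30 and 9.49). Replicate 3 held the highest level of all 6. The part of remaining Stat5a/b transcripts in these levels was not tested.

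**Figure D2:**
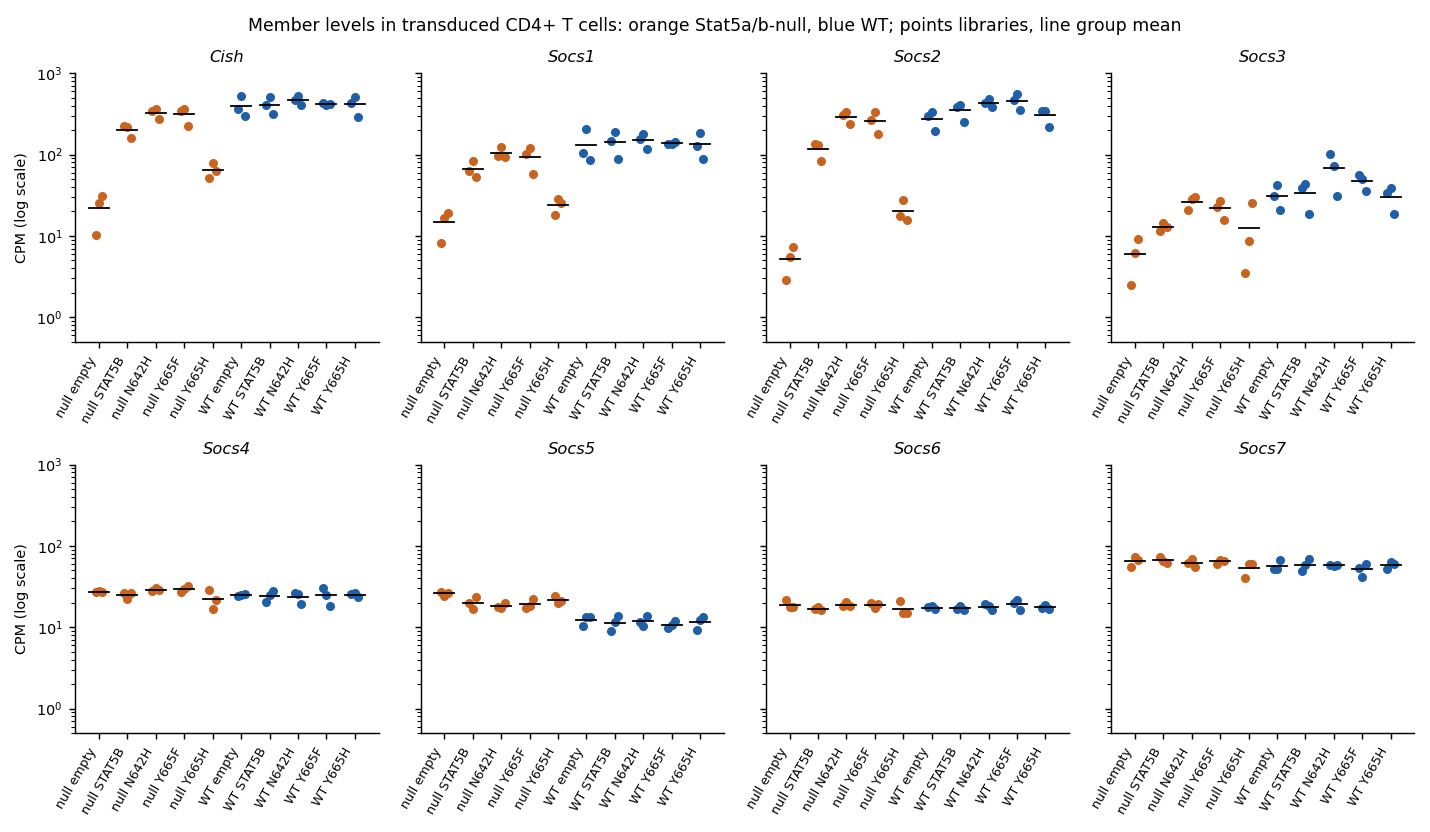
CPM of each member (log axis) in the 30 CD4+ libraries, grouped by background and vector, with a point per library and a line at the group mean. Cish, Socs1, Socs2 and Socs3 are low in null cells with the empty vector (means of 22.3, 14.7, 5.19 and 5.92 CPM) and high in WT cells with every vector, while Socs4, Socs6 and Socs7 lie on a level across all 10 groups.

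Returning STAT5B to the null cells raised Cish, Socs1 and Socs2. Against the empty vector, STAT5B raised 3 of the 8 members and lowered 0, where 0.477% of the 20113 genes tested were called. N642H raised 4 members (2.88% of genes called) and Y665F raised 4 (2.37% of genes called), Socs3 being the additional member in each. Y665H raised 1 member, Socs2, where 0.0249% of genes were called. With DESeq2 or the replicate block Cish was called as well, while other settings given at the end lost Socs2. The median log2 fold change over the 8 members was 1.09 with N642H, 0.98 with Y665F, 0.58 with STAT5B and 0.29 with Y665H, while that over all genes tested stayed between −0.02 and 0.04.

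Socs2 had the widest range. Its level of 2.86, 5.45 and 7.25 CPM with the empty vector rose to 84.1, 129 and 134 CPM with STAT5B, 238, 305 and 329.9 CPM with N642H, and 180.3, 266 and 329.9 CPM with Y665F. Each of these groups lay wholly above the empty vector, and the N642H and Y665F libraries overlapped each other. The rise was 22.4-fold with STAT5B (log2 4.48, SE 0.33, adjusted p = 3.59e-07), 55.1-fold with N642H (log2 5.78, SE 0.35, adjusted p = 2.37e-08) and 49.3-fold with Y665F (log2 5.62, SE 0.34, adjusted p = 2.27e-08). With Y665H its libraries read 15.7, 17.5 and 27.5 CPM, all above the empty vector and all below STAT5B. That rise was 3.96-fold (log2 1.99, SE 0.31, adjusted p = 0.0185). The call for Y665H was lost without empty-vector replicate 1 (log2 1.70, adjusted p = 0.16), without empty-vector replicate 2 (log2 2.04, adjusted p = 0.116) and without Y665H replicate 2 (log2 1.68, adjusted p = 0.0817).

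Cish took the same order of groups. It read 158, 220.1 and 226 CPM with STAT5B, 275, 344 and 366 CPM with N642H, 223, 347 and 364 CPM with Y665F, and 52.3, 63.5 and 79.5 CPM with Y665H, against 10.2, 25.6 and 31.1 CPM with the empty vector. All 4 vectors stood above the empty vector without overlap. The log2 fold changes were 3.17 with STAT5B (SE 0.31, adjusted p = 1.68e-05), 3.84 with N642H (SE 0.32, adjusted p = 7.04e-07) and 3.77 with Y665F (SE 0.32, adjusted p = 8.92e-07). With Y665H the value was 1.56 (SE 0.30, adjusted p = 0.142), and with the replicate number as a block it was 1.56 (adjusted p = 0.00794).

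Socs1 was raised less. Its libraries read 8.25, 16.5 and 19.3 CPM with the empty vector, 52.6, 62.2 and 83.7 CPM with STAT5B, 92.4, 95.5 and 123 CPM with N642H, 57.3, 103 and 120 CPM with Y665F, and 18.1, 25.7 and 28.8 CPM with Y665H. The STAT5B, N642H and Y665F groups stood apart from the empty vector, and the Y665H group overlapped it. The log2 fold changes were 2.16 with STAT5B (SE 0.30, adjusted p = 0.000705), 2.78 with N642H (SE 0.30, adjusted p = 1.68e-05), 2.64 with Y665F (SE 0.30, adjusted p = 3.28e-05) and 0.74 with Y665H (SE 0.29, adjusted p = 0.896).

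Socs3 was raised by N642H and Y665F. It read 2.53, 6.09 and 9.15 CPM with the empty vector, 11.6, 12.8 and 14.6 CPM with STAT5B, 20.9, 28.5 and 30.1 CPM with N642H and 15.7, 22.8 and 27.2 CPM with Y665F. These 3 vectors did not overlap with the empty vector. N642H gave a log2 fold change of 2.13 (SE 0.50, adjusted p = 0.00976) and Y665F of 1.87 (SE 0.50, adjusted p = 0.0236). The Y665F call was lost without empty-vector replicate 1 or 2 or Y665F replicate 1 or 2, with adjusted p between 0.0697 and 0.0894. STAT5B gave 1.13 (SE 0.50, adjusted p = 0.288), and 1.27 (adjusted p = 0.0469) with the replicate block. The Y665H libraries read 3.55, 8.67 and 25.5 CPM, which gave 1.11 (SE 0.50, adjusted p = 0.896), and 0.068 without replicate 3. The highest of them, replicate 3, also held the highest Stat5a level of the group at 14.9 CPM, against 1.98 and 4.94 CPM, and the part of this in its Socs3 level was not tested.

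Socs5 went the other way by a smaller amount. It read 24.5, 26.4 and 27.1 CPM with the empty vector, 17.3, 17.6 and 20.1 CPM with N642H and 17.3, 18.1 and 22.5 CPM with Y665F, with no overlap. Its log2 fold change was −0.54 with N642H (SE 0.14, adjusted p = 0.0139) and −0.46 with Y665F (SE 0.14, adjusted p = 0.0394), which passed the adjusted p and not the fold minimum. Socs4, Socs6 and Socs7 stayed within 16.5 to 31.9, 14.8 to 21.4 and 40.4 to 72.7 CPM over the 15 null libraries and were called in 0 of the comparisons of these cells.

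The variants were then set against unmutated STAT5B in the null cells. Mean Stat5b was 315 CPM with STAT5B, 217 CPM with N642H, 280 CPM with Y665F and 267 CPM with Y665H (libraries 196 to 365). The part of these levels in the differences below was not tested. Y665H held 3 members lower, where 0.149% of genes were called, and these were Socs2 at −2.50 on the log2 scale (SE 0.29, adjusted p = 0.00108), Cish at −1.60 (SE 0.29, adjusted p = 0.0267) and Socs1 at −1.43 (SE 0.29, adjusted p = 0.0459). The libraries of the groups did not overlap for these 3 genes. The calls of Cish and Socs1 were lost without Y665H replicate 1 or 3 and without STAT5B replicate 1 or 2, with log2 fold changes between −1.55 and −1.44 for Cish and between −1.46 and −1.17 for Socs1. That of Socs2 held in each of these settings.

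For N642H and Y665F against STAT5B, Socs2 passed the fold minimum and missed the adjusted p. Against STAT5B, edgeR called 0 members with N642H (0.0696% of genes called, 3 members at an unadjusted p under 0.05) and DESeq2 called 1. With Y665F both tools called 0 members (0.00994% of genes called, 2 members at an unadjusted p under 0.05). The Socs2 libraries did not overlap with those of STAT5B in either comparison, with log2 fold changes of 1.30 for N642H (SE 0.28, adjusted p = 0.111) and 1.14 for Y665F (SE 0.28, adjusted p = 0.319). Replicate numbers paired the null libraries, and with the number as a block the values were 1.30 (adjusted p = 0.00212) and 1.12 (adjusted p = 0.0108), which called Socs2 in each. Between Y665F and N642H, edgeR and DESeq2 called 0 members (0% of genes called with edgeR, 0 members at an unadjusted p under 0.05). The log2 differences of the 8 members lay between −0.26 and 0.08.

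STAT5B did not bring all members back to the level of WT cells with the empty vector. In that comparison 1 member was called, where 0.778% of genes were called. This was Socs2, at 84.1, 129 and 134 CPM against 197, 299.8 and 336 CPM, with a log2 fold change of −1.26 (SE 0.28, adjusted p = 0.0192). The call rested on single libraries, being lost without WT empty-vector replicate 1 or 2 or STAT5B replicate 3 (−1.20, −1.10 and −1.08). The replicate block gave −0.91 for Socs2, but it was set within each background and cannot adjust this difference between backgrounds. Cish was at −0.98 (adjusted p = 0.0914, and −1.13 with adjusted p = 0.0369 without WT empty-vector replicate 3), Socs1 at −0.995 (adjusted p = 0.188) and Socs3 at −1.27 (adjusted p = 0.319). None of the 3 was called with all libraries. The null and WT libraries did not overlap for these genes, which only describes them, as groups of 3 can separate by chance. For Socs1 the gap was small, from 83.7 CPM in the highest null library to 85.3 CPM in the lowest WT library. The Stat5b transcript itself, vector and locus together, had a mean of 315 CPM in the null cells with STAT5B and 201 CPM in WT cells with the empty vector. Stat5a, which no vector carried, had means of 3.26 and 158 CPM in the same groups. The part of Stat5a and Stat5b in the members' levels was not tested.

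In WT cells no member was called with the same vectors. Against the empty vector, edgeR and DESeq2 called 0 of the 8 members with N642H (0.985% of genes called), Y665F (0.707%), STAT5B (0.00975%) and Y665H (0.00488%). At an unadjusted p under 0.05 stood 2, 1, 0 and 0 members. For 8 genes, 0 calls is near each of these shares, so the counts say nothing particular about the family. This also holds for the counts that follow. Against STAT5B in WT cells, both tools called 0 members with N642H (0.00488% of genes called, 1 member at an unadjusted p under 0.05), with Y665F (0%, 0 members) and with Y665H (0.00488%, 0 members), and 0 again for Y665F against N642H (0%, 0 members).

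The members nearest to a call in WT cells were Socs2 and Socs3. Socs2 read 381, 429 and 479 CPM with N642H and 356, 465 and 552 CPM with Y665F, all above the empty vector at 197, 299.8 and 336 CPM. The log2 fold changes were 0.65 (SE 0.23, adjusted p = 0.238) and 0.73 (SE 0.23, adjusted p = 0.138). Socs3 read 31.4, 72.9 and 101 CPM with N642H against 20.7, 30.8 and 42.4 CPM, with overlap, and its log2 fold change was 1.14 (SE 0.39, adjusted p = 0.227). With the replicate block it was 1.06 (adjusted p = 0.000118), and without N642H replicate 3 it was 1.49 (adjusted p = 0.0364). In these cells 29 of 30 pairs met the rule for pairing, with a median correlation of 0.649 and a lowest of 0.016. Cish, at 408 to 428 CPM with Y665F, was within the range of 298 to 526 CPM of the empty vector.

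**Figure D3:**
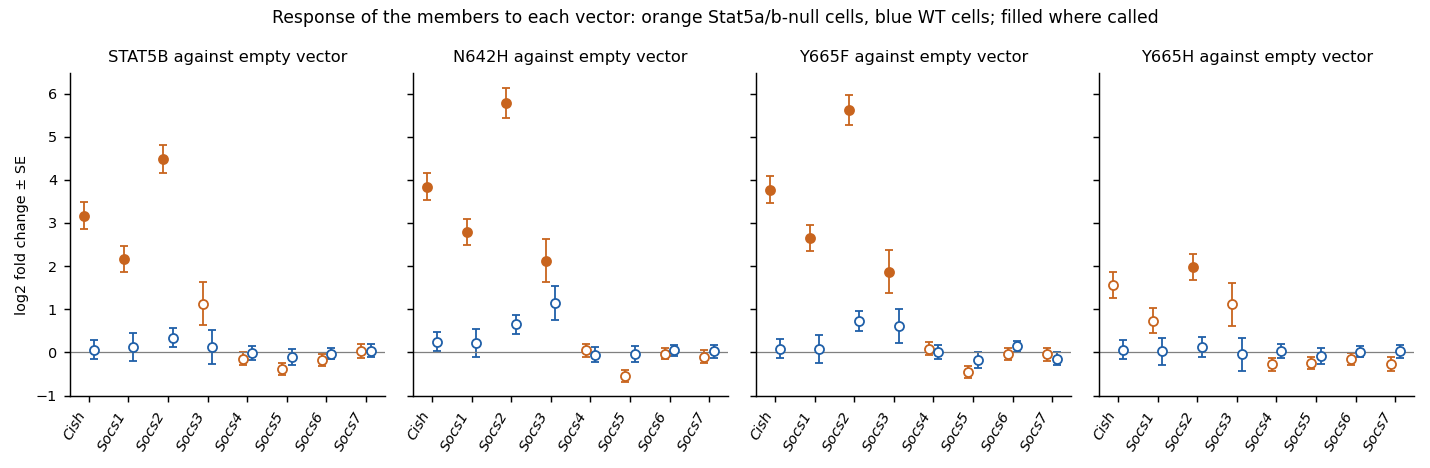
Log2 fold change (± SE) of each member for 4 vectors against the empty vector, in null cells (orange) and WT cells (blue), filled where called. In null cells Socs2 reaches 4.48 with STAT5B, 5.78 with N642H and 5.62 with Y665F, while no WT value is filled.

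The responses differed between the backgrounds for Cish, Socs1 and Socs2. The difference of the log2 fold changes, null minus WT, was tested as an interaction in a fit over all 30 libraries. For STAT5B it was called for 2 members (0.1% of genes called), Cish at 3.13 (SE 0.40, adjusted p = 9.6e-05) and Socs2 at 4.16 (SE 0.41, adjusted p = 1.01e-06). Socs1 was at 2.07 (adjusted p = 0.0955, and 0.000128 with the replicate block). For N642H it was called for 3 members (0.341% of genes called), Socs2 at 5.19, Cish at 3.65 and Socs1 at 2.63. Y665F gave the same 3 members (0.419% of genes called), at 4.93, 3.73 and 2.61. For Y665H edgeR called 0 members (0.00455% of genes called, 2 at an unadjusted p under 0.05), and DESeq2 called 1. The Y665H values were 1.85 for Socs2 and 1.49 for Cish, each with an adjusted p of 1.00, and the replicate block gave 1.80 for Socs2 (adjusted p = 0.000589). Socs3 was called in none of the 4.

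Across the 10 CD4+ groups, Cish, Socs1 and Socs2 followed each other closely. Over the group means on the scale log2(CPM + 1), Pearson's r was 0.99 between Cish and Socs2, 0.99 between Cish and Socs1, and 0.99 between Socs1 and Socs2. Socs3 followed these with r between 0.89 and 0.91, and Socs5 ran against the 4 with r between −0.89 and −0.81. Among 1207 other genes (mean of 5 CPM or more, range of 1 or more on that scale), those most like Cish were Fbxo17 (0.997), Socs2 (0.995) and Fgd6 (0.993). Those most like Socs2 were Kcnj8 (0.998), Fbxo17 (0.997) and Muc13 (0.996), and those most like Socs1 were Itih5 (0.997), Il2ra (0.995) and Kcnk5 (0.994). Socs3 went most with Cndp2 (0.987), Nfil3 (0.985) and Vim (0.98), and Socs5 with Gk5 (0.993) and Igsf3 (0.992). The 10 points share their library preparation and fall into 5 null and 5 WT groups, so these values describe the groups and carry no test. Socs4, Socs6 and Socs7 spanned less than 0.4 on that scale, too little for a likeness to be read.

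Other genes of the pathway were counted in the same tests. In the null cells, STAT5B raised 4 of 12 other STAT5 target genes, among them Lta, which encodes lymphotoxin alpha (log2 2.56), and Il2ra, the alpha chain of the IL-2 receptor (log2 2.12). N642H raised 6 of the 12 (Lta 4.33, Il2ra 2.95) and Y665F raised 6 (Lta 4.20, Il2ra 2.82). With Y665H, edgeR called 0 of the 12 (4 at an unadjusted p under 0.05), and Y665H stood below STAT5B for 3 of the 12. Of 8 receptors that use or pair with the common gamma chain, Il2ra and Il4ra rose with STAT5B, N642H and Y665F. Of 9 genes for the ubiquitin ligase that works with the SOCS box, such as Cul5 and the elongins, edgeR called 0 in any comparison of the 3 experiments, with 0 to 4 of the 9 at an unadjusted p under 0.05. Among 12 other negative regulators, Ptpn11, which encodes the phosphatase SHP2, was lower with N642H (log2 −1.01) and higher in null than in WT cells with the empty vector (log2 1.51).

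In splenic T cells the family was read after IL-2 and IL-7. Against WT cells, edgeR and DESeq2 called 0 members in Y665F cells (1.53% of 22313 genes called, 0 members at an unadjusted p under 0.05) and 0 in Y665H cells (0.0717% of genes called, 2 members at an unadjusted p under 0.05). Between Y665F and Y665H cells 2 members were called, Cish and Socs2, each higher in Y665F, where 4.78% of genes were called. Libraries of Y665H cells were the shallowest, with 2017012 to 15896125 reads. Replicate 4 held 5327354, exactly the reads of replicates 1 (3310342) and 2 (2017012) added together, and its Cish, Socs1 and Socs2 counts add up likewise. Tests with Y665H T cells use these reads repeatedly, so their SE and adjusted p can be too small. Both calls held when any single library was left out, replicate 4 included (log2 1.74 to 2.20 for Cish, 1.35 to 2.03 for Socs2).

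Cish read 19.2, 37.8, 39.7 and 52.4 CPM in Y665F cells, 3.40, 10.01, 10.2 and 14.0 CPM in Y665H cells and 13.1, 14.8, 27.4 and 43.0 CPM in WT cells. The Y665F and Y665H libraries did not overlap, and the WT libraries overlapped with each. The lowest Y665H value rested on 7 reads. Y665F stood above Y665H by 3.88-fold (log2 1.95, SE 0.43, adjusted p = 0.00698). Y665H was at −1.35 against WT (SE 0.42, adjusted p = 0.336) and Y665F at 0.61 (SE 0.40), which missed the adjusted p.

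Socs2 read 36.3, 42.1, 53.3 and 62.2 CPM in Y665F cells, 7.99, 11.5, 17.0 and 28.9 CPM in Y665H cells and 29.7, 34.0, 39.2 and 44.9 CPM in WT cells. Y665H lay below WT and Y665F without overlap, though its replicate 3 came within 1 CPM of the lowest WT library. Y665F stood above Y665H by 2.90-fold (log2 1.54, SE 0.33, adjusted p = 0.00565). Against WT, Y665H was at −1.14 (SE 0.33, adjusted p = 0.273). Without its replicate 3 it was at −1.63 (adjusted p = 0.0417), in a fit that kept replicates 1, 2 and 4, whose reads repeat. Socs1 (6.32 to 23.3 CPM) and Socs3 (80.5 to 166 CPM) overlapped between the 3 genotypes.

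All 4 of the members that were lower in Stat5a/b-null CD4+ cells were higher in Y665F T cells cultured with the interleukins than in those without. No other member was called, where 2.97% of genes were called. Cish read 2.28, 4.60 and 9.32 CPM without interleukin and was 6.96-fold higher with it (log2 2.80, SE 0.49, adjusted p = 0.000799). Socs3 read 17.6, 21.3 and 65.1 CPM without interleukin and 80.5 to 159 CPM with it, a 3.59-fold difference (log2 1.84, SE 0.35, adjusted p = 0.00196). Socs2 read 7.44, 15.8 and 20.5 CPM without it and was 3.34-fold higher with it (log2 1.74, SE 0.36, adjusted p = 0.00434). Socs1 read 3.75, 8.17 and 9.52 CPM without it against 14.9 to 20.6 CPM with it, a 2.53-fold difference (log2 1.34, SE 0.36, adjusted p = 0.0335). The groups did not overlap for any of the 4 genes. Socs4, Socs5, Socs6 and Socs7 had log2 fold changes between 0.00 and 0.28. WT and Y665H cells without interleukin were not analysed here, so this difference was measured in Y665F cells alone.

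The Socs1 and Socs2 differences rested on few libraries. Leaving out any of 6 of the 7 libraries ended the Socs1 call, with log2 fold changes from 1.01 (without replicate 1 of the cells that had none) to 1.60, and the replicate block gave 1.45 (adjusted p = 0.0605). The Socs2 call was lost without replicate 3 of those cells (1.42, adjusted p = 0.0545). Without the Y665F replicate 3 that stood apart, the difference between cells with and without interleukin was 3.002 for Cish, 2.00 for Socs3, 1.85 for Socs2 and 1.41 for Socs1, and the difference to Y665H was 2.15 for Cish and 1.64 for Socs2, all called.

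Other lists moved in the same comparisons. Of the 12 other STAT5 target genes, 11 were higher in Y665F cells with interleukin than without, led by Gzmb, which encodes granzyme B (log2 5.95), and Osm (log2 3.67), and 6 were higher in Y665F than in Y665H cells (Gzmb 4.71, Osm 2.08). Of 14 interferon-induced genes, 9 were higher with interleukin than without and 10 were higher in Y665F than in Y665H cells. The summed level of 4 NK cell markers was 239 to 358 CPM in Y665F cells with interleukin, 78.6 to 302 CPM in WT, 32.3 to 55.1 CPM in Y665H and 37.7 to 55.9 CPM in Y665F cells without interleukin, with 1 of the 4 at 0 in all these libraries. The summed level of the 14 interferon-induced genes was 1728 to 3707 CPM in Y665F cells with interleukin, 857 to 1938 in WT, 580 to 1156 in Y665H and 563 to 617 in Y665F cells without it. The part of cell makeup in the levels of the members was not tested.

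**Figure D4:**
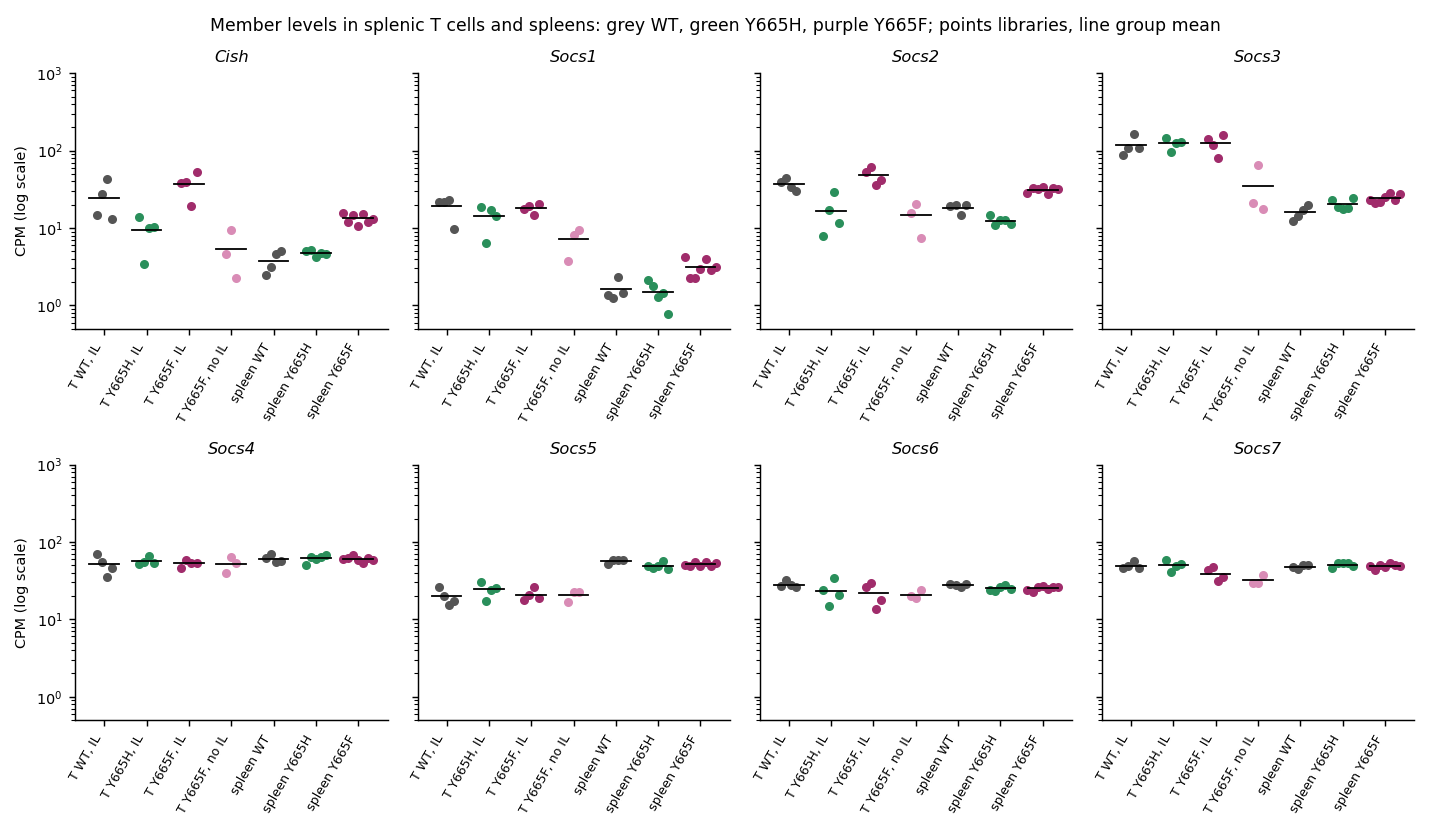
CPM of each member (log axis) in the 15 splenic T cell and 16 spleen libraries, with a point per library and a line at the group mean. Cish and Socs2 lie lowest in Y665H T cells among the cells kept with interleukin, and in spleens Cish is 10.8 to 15.6 CPM in Y665F against 2.44 to 5.22 CPM in the other genotypes.

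Unstimulated spleens showed the Y665F difference most clearly for Cish. Against WT spleens, Y665F spleens had 1 member called, where 1.2% of 19418 genes were called. Cish read 2.44, 3.17, 4.62 and 4.98 CPM in WT spleens and 10.8 (lowest), 13.2 (median) and 15.6 CPM (highest) in the 7 Y665F spleens. All 7 stood above all WT and all Y665H spleens, with a 3.50-fold difference to WT (log2 1.81, SE 0.17, adjusted p = 8.45e-06). Spleens are mixed tissue, and in such bulk samples fewer cells of a type and less RNA per cell cannot be told apart.

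Further members passed the adjusted p below the fold minimum. Socs2 read 14.6, 19.3, 19.7 and 20.02 CPM in WT spleens and 27.1, 31.7 and 33.7 CPM (lowest, median, highest) in Y665F spleens, without overlap, at a log2 fold change of 0.76 (SE 0.10, adjusted p = 0.000246). Socs3 read 12.3 to 19.8 CPM in WT and 20.9 to 28.1 CPM in Y665F spleens, at 0.60 (SE 0.13, adjusted p = 0.00742). Socs1 was near the lower end of detection, at 1.26 to 2.35 CPM in WT and 2.26 to 4.20 CPM in Y665F spleens, or 35 to 152 reads, and its log2 fold change was 0.95 (SE 0.25, adjusted p = 0.0205). It passed the fold minimum without WT replicate 3 (1.20) and without Y665F replicate 2 or 3 (1.02 in each).

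Y665H spleens were also set against WT. Both edgeR and DESeq2 called 0 of the 8 members, where 4.37% of genes were called. For 8 genes this is near that share, so the count says nothing particular about the family. At an unadjusted p under 0.05 stood 3 members, and 2 passed the adjusted p below the fold minimum. Socs2 read 10.8, 11.4, 12.7, 12.8 and 14.7 CPM, at −0.56 against WT (SE 0.11, adjusted p = 0.00248), with the highest library of Y665H just above the lowest of WT. Cish read 4.24 to 5.22 CPM, at 0.32 (SE 0.17), with overlap. Socs5 was at −0.21 (SE 0.07, adjusted p = 0.0427).

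Between Y665F and Y665H spleens 3 members were called, each higher in Y665F, where 5.28% of genes were called. They were Socs2 at 1.32 (SE 0.10, adjusted p = 8.17e-08), Cish at 1.49 (SE 0.15, adjusted p = 2.89e-06) and Socs1 at 1.07 (SE 0.23, adjusted p = 0.00248). None of the 3 overlapped between the groups. The Socs1 value fell under the fold minimum without Y665F replicate 1 or 5 or Y665H replicate 5 (1.00, 0.98 and 0.93). Socs4, Socs5, Socs6 and Socs7, the 4 highest members per kb in WT spleens, lay between −0.05 and 0.07.

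The content of T cell transcripts differed between the spleens in the same direction. The summed level of 12 T cell markers was 738 to 877 CPM in WT, 505 to 768 CPM in Y665H and 960.0 to 1338 CPM in Y665F spleens. That of 4 regulatory T cell markers was 124 to 147, 79.5 to 123 and 173 to 228 CPM in the same order. Neutrophil markers (6 of 7 in the files) summed to 193 to 314 CPM in WT, 118 to 1524 CPM (median 1116) in Y665H and 384 to 940.3 CPM in Y665F spleens. The 8 erythroid markers summed to 505 to 960.03 CPM in WT, 323 to 2401 CPM (median 1874) in Y665H and 217 to 703 CPM in Y665F spleens, with 1 of the 8 at 0 throughout. The part of neutrophil, erythroid and regulatory T cell content in the members' levels was not tested.

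The members were also read relative to the T cell list. Cish stayed called between Y665F and WT spleens at 1.31 (adjusted p = 6.32e-05), while Socs2 was at 0.26 (adjusted p = 0.114) and Socs3 at 0.08. Between Y665H and WT spleens on that scale, Socs2 was at −0.07 (adjusted p = 0.684), Cish at 0.83 (adjusted p = 0.00291) and Socs3 at 0.86 (adjusted p = 0.000652), and no member was called. Between Y665F and Y665H spleens on that scale, Cish was at 0.48 (adjusted p = 0.0128), Socs2 at 0.33 and Socs1 at 0.06, so that no rise was called, and Socs4, Socs6 and Socs7 were called lower at −1.05, −1.02 and −1.08. This scale moves the median of all genes by −0.51, 0.50 and −1.01 in Y665F against WT, Y665H against WT and Y665F against Y665H. Y665H replicate 1 stood apart in its group, with 323 CPM of erythroid markers against 1721 to 2401, and without it the 3 calls against Y665F held (Cish 1.49, Socs2 1.36, Socs1 1.20). All 4 WT spleen files list 0 reads as not aligned and all 12 mutant files list 95747 to 158811, so a difference in processing cannot be told apart from genotype in the comparisons with WT spleens.

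**Figure D5:**
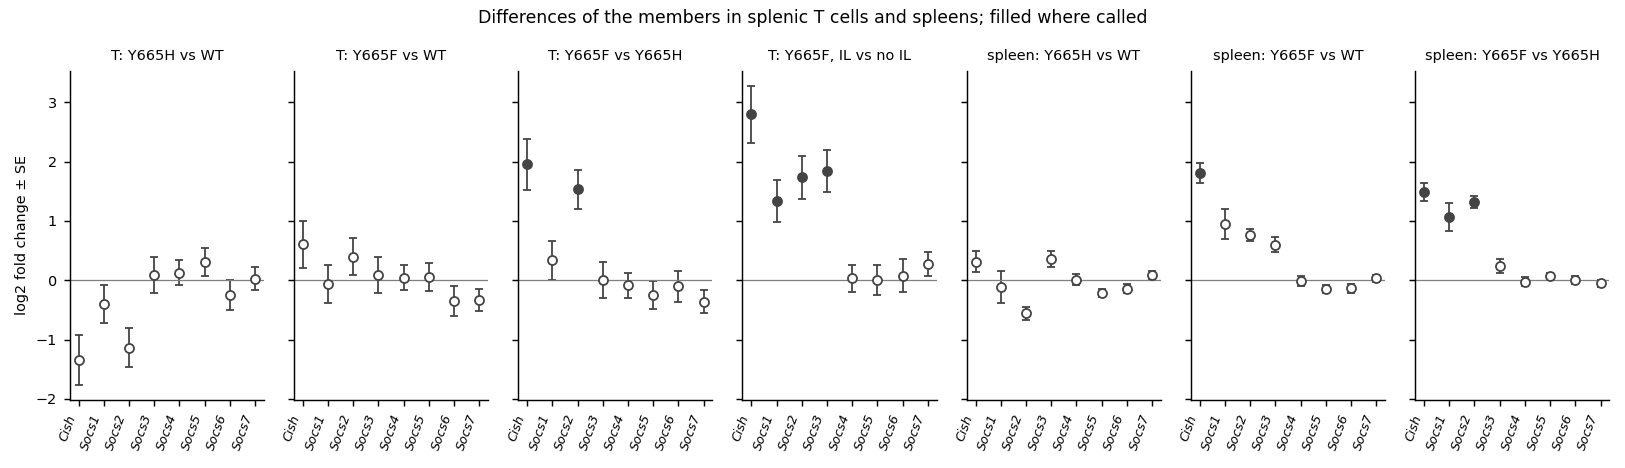
Log2 fold change (± SE) of each member in 4 comparisons of splenic T cells and 3 of spleens, filled where called. Cish and Socs2 are filled between Y665F and Y665H in both tissues, at 1.95 and 1.54 in T cells and at 1.49 and 1.32 in spleens, and 4 members are filled for Y665F cells with against without interleukin.

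Over the 25 comparisons between groups, Socs2 was called 10 times (7 higher, 3 lower), Cish 9 times (7 and 2), Socs1 7 times (5 and 2) and Socs3 4 times (3 and 1). Socs5 was called 1 time. Socs4, Socs6 and Socs7 were called in 0 of the 25 by edgeR or DESeq2 and had an unadjusted p under 0.05 in 0 of the 25, with log2 fold changes from −0.28 to 0.23, −0.35 to 0.17 and −0.36 to 0.28. Several of these comparisons share a group, so their counts do not add as separate evidence.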

How the data were processed

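RNA-seq counts of 61 libraries in 17 groups were analysed. Per the labels and the paper's methods, the authors trimmed reads with Trimmomatic 0.36, aligned them to mm10 with STAR 2.5.4a and counted them per gene with HTSeq 0.9.1. The deposited files hold these raw counts, 24421 gene rows and 5 rows at the end for reads assigned to no gene (28.4% to 36.9% of reads in CD4+ cells, 63.9% to 85.7% in splenic T cells, 62.8% to 69.4% in spleens), which were left out. The strand setting of counting is not given in the sources used here.

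Fits were made in R 4.3.3 with edgeR 4.0.16 for null CD4+ cells, WT CD4+ cells, both together, splenic T cells and spleens. Genes with at least 10 reads over a fit entered, with TMM factors, glmQLFit and glmQLFTest, and Benjamini-Hochberg adjustment over all genes of the fit. Calls needed a log2 fold change beyond 1 with an adjusted p under 0.05. The SE was obtained by dividing the absolute log2 fold change by the root of its F statistic. All 8 members entered every fit. The members, gene lists and tests were chosen with earlier results of these data known. The genes named are the members, at most 2 called genes of a list with the largest change, and for each member the 3 genes most like it over the CD4+ group means, on log2(CPM + 1). Some genes that this rule or a check would name are not reported here. Stat5a and Stat5b checked the deletion, and genes on which a result turned were added.

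Replicate numbers were taken to pair libraries where every pair's deviations from the group means correlated above 0.1. This held for 30 of 30 pairs in null cells (median 0.465) and 29 of 30 in WT cells (median 0.649, lowest 0.016). It held for 5 of 21 pairs in splenic T cells and 4 of 13 in spleens. No pair of libraries of a group differed by as little as sampling noise. That check compares pairs and cannot find a library that is the sum of others, as Y665H T cell replicate 4 is. In the fit of both backgrounds the replicate block was set within each background, so it adjusts differences within a background and not between them. The alternatives were DESeq2 1.42.0, RLE size factors, library totals, filterByExpr, no filter, the replicate block, a RUVr factor, groups fitted alone, no fold minimum, leaving out each library, and for spleens scaling to T cell markers. Exon lengths and positions are of GENCODE M21 (GRCm38), promoter windows of RefSeq. The pipeline was tested on simulated data.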

Additional observations from a re-analysis of the deposited data

Results flagged for a closer look

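In groups of 4 to 10 libraries, 3 of 48 pairs of a member and a group held a library far from the others of its group by Dixon's test, which flags about 1 in 20 by chance. Socs1 was 9.71 CPM in WT splenic T cell replicate 4, below the other 3 at 21.4 to 23.3 CPM. Socs2 was 14.6 CPM in WT spleen replicate 3 and Socs5 was 52.6 CPM in WT spleen replicate 1, each the lowest of its group.

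The response to a vector differed between null and WT CD4+ cells by the interaction test for 8 of 32 combinations of member and vector, each larger in null cells. The differences of the log2 fold changes were 3.13 for Cish and 4.16 for Socs2 with STAT5B. They were 3.65 for Cish, 2.63 for Socs1 and 5.19 for Socs2 with N642H, and 3.73, 2.61 and 4.93 for the same genes with Y665F. The adjusted p of the 8 lay between 1.9e-08 and 0.00416 with edgeR.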

How the results depend on the processing

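Among settings that leave out no library, 2062 values kept their direction and their side of the threshold, 27 passed it anew, 13 lost it and 10 turned direction. Among the first, 62 values of members without a call changed sign by no more than 1 SE, which was taken as no turn. Members called against the empty vector in null cells with Y665H, 1 as reported, were 2 with DESeq2, no filter or the replicate block and 0 with filterByExpr, groups fitted alone or RUVr. N642H against STAT5B, 0 as reported, gave 1 with DESeq2, no filter or the replicate block and 2 with the groups alone, and Y665F against STAT5B gave 1 with the block. Y665H against STAT5B, 3 as reported, gave 1 with filterByExpr, where Cish was at −1.57 and Socs1 at −1.40, and Socs1 also lost its call with RLE (−1.41) and library totals (−1.39). In WT cells N642H gave 1 with the block or RUVr. Null cells with STAT5B against WT gave 2 with the groups alone, 2 without the fold minimum and 0 with the block, which cannot adjust that comparison. Y665F and Y665H spleens against WT gave 4 and 2 without the fold minimum, and the Y665H interaction gave 1 with DESeq2 or the block.

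Leaving out each library gave 0 to 2 members for Y665H against the empty vector, 1 to 3 for Y665H against STAT5B, 0 to 1 for N642H in WT cells, 0 to 2 for null STAT5B against WT cells, 0 to 1 for Y665H against WT T cells, 2 to 4 for Y665F T cells with against without interleukin and 1 to 2 for Y665F against WT spleens. It gave 3 to 4 for null Y665F against the empty vector, 4 to 5 for null against WT cells with the empty vector, 2 to 3 for Y665F against Y665H spleens and 2 to 3 for the STAT5B interaction. In the other comparisons the count did not change. Values that turned direction were those of members without a call as reported. Leaving out a library changed the sign of 169 further values by no more than 1 SE, and in null Y665H against STAT5B Socs3 ranged from −1.04 without Y665H replicate 3 to 0.45 without replicate 1. In null Y665H against STAT5B, leaving out a library moved Socs4 between −0.32 and 0.035 and took Socs6 to −0.12 without Y665H replicate 1. In WT Y665F cells it moved Socs4 between −0.18 and 0.16 against the empty vector, −0.16 and 0.19 against STAT5B, and −0.13 and 0.23 against N642H, the negative value without Y665F replicate 1. With the replicate block over both backgrounds, Socs7 was −0.078 in null against WT cells with the empty vector, and with STAT5B in the null cells Socs6 was 0.15 and Socs7 −0.023. These values depend on the baseline replicates, since the block was set within each background. In spleens scaled to T cell markers, Socs7 was −0.49 in Y665F against WT. Socs1, Socs5 and Socs6 were 0.34, 0.29 and 0.36 in Y665H against WT, and Socs3, Socs5 and Socs6 were −0.78, −0.94 and −1.02 in Y665F against Y665H. Apart from the baseline of the block and that scale, which shifts all genes, the causes were not tested. The replicate block changed no other call than those given here and beside the results. The shallow Y665H T cell libraries limit Cish and Socs1, which rested there on as few as 7 and 13 reads.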
